A study of Mus musculus with 34 samples.

Results

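This is an account of where p65 sat on the genome of CTCF-WT dendritic cells before and after lipopolysaccharide (LPS). The members were the 781 p65 peaks called in unstimulated cells (WT) and the 5465 called after LPS (WTLPS), 6246 of the 1393623 peaks in the 30 lists of the series. A peak that shared at least 1 bp with a peak of the other list was called shared. That left 731 shared and 50 WT only peaks in the WT list, and 726 shared and 4739 WTLPS only peaks in the WTLPS list.

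The study cultured bone marrow of C57BL/6 mice, 8 weeks old, for 6 days with the growth factor GM-CSF, which gives bone marrow-derived dendritic cells (BMDCs), and selected CD11c+ cells. CTCF-WT cells carried the CreER transgene, a tamoxifen-activated Cre recombinase, without the floxed Ctcf alleles of the knockout cells, and the protocol gives 4-OH tamoxifen at the start of culture to activate Cre. WT cells received no LPS and WTLPS cells received 100 ng/ml for 3 hours. Chromatin immunoprecipitation with a p65 antibody was followed by sequencing (ChIP-seq).

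p65, also called RelA, is a DNA-binding subunit of NF-κB. In resting cells IκB proteins hold most NF-κB in the cytoplasm. LPS is sensed by TLR4, the resulting kinase cascade leads to the breakdown of IκB, and p65 dimers enter the nucleus and bind κB motifs at promoters and enhancers of inflammatory genes. H3K4me1 marks enhancers, H3K27ac active enhancers and promoters, and H3K4me3 promoters. SMC1 is a subunit of cohesin, the ring complex that holds chromatin loops, and CTCF is the DNA-binding protein at which many loops end.

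Each condition had 1 peak list, so no difference below has a replicate check and none was tested. Percentages are followed by 95% Wilson intervals, which cover counting error only. Intervals that overlap do not show that 2 shares are alike. The study worked with 2 biological replicates and says in general that replicates were merged, but whether these p65 lists hold 1 replicate or both is not given in the sources used here. Peak strength is given as fold enrichment over local background and as −log10 q, both from the peak caller. The background coverage worked out from those columns was 0.710 fragments per base in WT and 0.860 in WTLPS. This value moves with fragment length as well as fragment number, and the read totals listed with the study run in the other order, so which library was deeper was not settled here. All 12 dendritic cell marker genes had an H3K27ac or H3K4me3 peak at the promoter in WT cells. The same held for 6 of 8 macrophage, 2 of 8 granulocyte, 3 of 10 lymphocyte and 3 of 7 erythroid genes, beside 58.9% of all protein-coding genes.

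The DNA under the p65 summits is shown first, because it differed between the classes. The windows run 50 bp to either side of a summit, on the plus strand of mm10, and capitals mark the κB consensus on either strand. The first set holds, for 8 gene lists, the strongest WTLPS only peak with a κB match near a leading gene of the list. Nfkb1 encodes the p50 precursor, Il6 and Cxcl5 a cytokine and a chemokine, and Marco a scavenger receptor. Cd80 encodes a costimulatory ligand of T cells, Gbp5 an interferon-induced GTPase, Fos an AP-1 subunit and Irf4 a transcription factor of dendritic cells.
Nfkb1 (chr3:135640313-135640413): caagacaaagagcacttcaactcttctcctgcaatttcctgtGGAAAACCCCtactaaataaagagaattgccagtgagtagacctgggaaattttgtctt
Il6 (chr5:29920346-29920446): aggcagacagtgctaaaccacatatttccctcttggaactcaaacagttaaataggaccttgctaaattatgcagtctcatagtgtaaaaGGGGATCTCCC
Cxcl5 (chr5:90706455-90706555): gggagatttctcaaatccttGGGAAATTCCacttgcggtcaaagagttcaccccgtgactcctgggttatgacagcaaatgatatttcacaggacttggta
Marco (chr1:120527559-120527659): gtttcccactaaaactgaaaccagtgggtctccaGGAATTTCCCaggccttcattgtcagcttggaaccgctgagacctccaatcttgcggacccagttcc
Cd80 (chr16:38406924-38407024): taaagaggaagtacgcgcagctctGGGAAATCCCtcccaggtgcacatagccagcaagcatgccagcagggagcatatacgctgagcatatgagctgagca
Gbp5 (chr3:142496777-142496877): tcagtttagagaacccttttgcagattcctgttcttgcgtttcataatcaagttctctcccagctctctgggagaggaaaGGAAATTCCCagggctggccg
Fos (chr12:85510547-85510647): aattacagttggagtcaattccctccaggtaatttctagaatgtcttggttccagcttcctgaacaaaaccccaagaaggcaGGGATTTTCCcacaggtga
Irf4 (chr13:30657817-30657917): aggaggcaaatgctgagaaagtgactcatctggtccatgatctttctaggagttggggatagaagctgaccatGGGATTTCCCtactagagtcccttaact
The Gbp5 window lay at the gene's own promoter. The Nfkb1 window was intronic, at −18221 bp from the start of the longest transcript (distances upstream are negative). The Irf4 window lay at −91359 bp from Irf4, at the promoter of the neighbouring phosphatase gene Dusp22. The Il6, Cxcl5, Marco and Fos windows were outside genes, and the Cd80 window was intronic to a neighbour, at −48587 bp from the Cd80 start.

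The second set holds the 2 strongest shared peaks (Marcks and Gnptab) and the 2 strongest WT only peaks (Abtb2 and H2-K1) with a κB match, named by the nearest protein-coding start. The H2-K1 window lay at the start of the class I pseudogene H2-K2, and reads from such near-identical copies can be placed on the wrong one.
Marcks (chr10:37338390-37338490): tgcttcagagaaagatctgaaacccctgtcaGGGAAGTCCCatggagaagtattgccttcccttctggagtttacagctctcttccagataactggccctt
Gnptab (chr10:88372609-88372709): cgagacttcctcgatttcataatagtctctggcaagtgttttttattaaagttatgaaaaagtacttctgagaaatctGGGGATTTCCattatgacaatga
Abtb2 (chr2:103569927-103570027): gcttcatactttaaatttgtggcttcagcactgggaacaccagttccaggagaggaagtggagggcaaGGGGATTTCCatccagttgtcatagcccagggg
H2-K1 (chr17:33978896-33978996): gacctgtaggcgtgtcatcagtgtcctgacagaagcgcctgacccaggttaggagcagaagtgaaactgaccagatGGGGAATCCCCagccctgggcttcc

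The κB consensus stood within 50 bp of 30.0% of WT summits (26.9 to 33.3%) and 11.9% of WTLPS summits (11 to 12.8%). In windows of that length across the genome the share was 0.696%. By class it was 36.0% of WT only (24.1 to 49.9%), 29.5% of shared WT (26.4 to 33.0%), 23.7% of shared WTLPS (20.7 to 26.9%) and 10.1% of WTLPS only summits (9.24 to 11%). In the flanks, 1 kb from the WTLPS only summits, the share was 0.971%. The sites bound before LPS therefore held the motif more than 2 times as often as those seen after LPS alone.

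Peak strength differed between the classes too, so the share was also read among WTLPS peaks of like strength. In the fifth of the WTLPS list with the strongest peaks it was 22.9% of 463 shared peaks (19.3 to 26.9%) and 12.7% of 630 WTLPS only peaks (10.3 to 15.5%). In the fifth of middle strength it was 33.3% of 72 (23.5 to 44.8%) and 12% of 1021 (10.2 to 14.2%). In the fifth with the weakest, which held 14 shared peaks, the shares were 7.14% and 7.32%.

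The most frequent κB sequences at WTLPS summits were GGGAAATTCC with 67 of 772 sites, GGGAATTTCC with 58, GGGGAATTCC with 57, GGGGATTTCC with 56 and GGGACTTTCC with 53. These 5 led in both classes, with GGGAAATCCC level with GGGACTTTCC among WTLPS only sites. GGGGATTTCC made up 11% of sites at shared WTLPS and 5.86% at WTLPS only summits. Of the 58 forms the consensus allows, 52 occurred. Of the sites at WTLPS only summits 26.3% (22.8 to 30.1%) were centred within 10 bp of the summit, and of those at shared WTLPS summits 18.7% (14.0 to 24.5%). The median distance was 22.5 bp in both classes, near the middle of the range the window allows. The share under even placement was not computed. At promoters the κB share was 12.1% of WTLPS only (10.1 to 14.4%) and 28.8% of shared WTLPS summits (22 to 36.6%), and away from them 9.60% (8.71 to 10.6%) and 22.4% (19.2 to 26%).

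For the other motifs the intervals of WTLPS only and shared WTLPS summits overlapped, which does not show that the shares were alike. AP-1, the Fos and Jun family, was searched as TGANTCA and found at 11.6% of WTLPS only (10.7 to 12.5%) and 8.82% of shared WTLPS summits (6.96 to 11.1%), with 2.96% of genome windows. C/EBP (TTGCNNAA), the motif of a myeloid factor family, was found at 13.0% and 14.3%, with 4.69% of the genome. PU.1 (GAGGAAGT), the myeloid lineage factor, was at 3.99% and 5.51%, with 0.588%. IRF (GAAANNGAA) was at 5.80% of WTLPS only and 4.82% of shared WTLPS summits, with 4.02% of the genome. STAT (TTCNNNGAA) was at 4.87% and 4.82%, with 3.70%. The CTCF consensus was found at 4 of 5465 WTLPS summits. κB and AP-1 stood together at 56 WTLPS summits, and 3115 of 5465 (57.0%) held none of the 7 motifs. Searches covered both strands, and matches of different motifs could overlap.

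**Figure D1:**
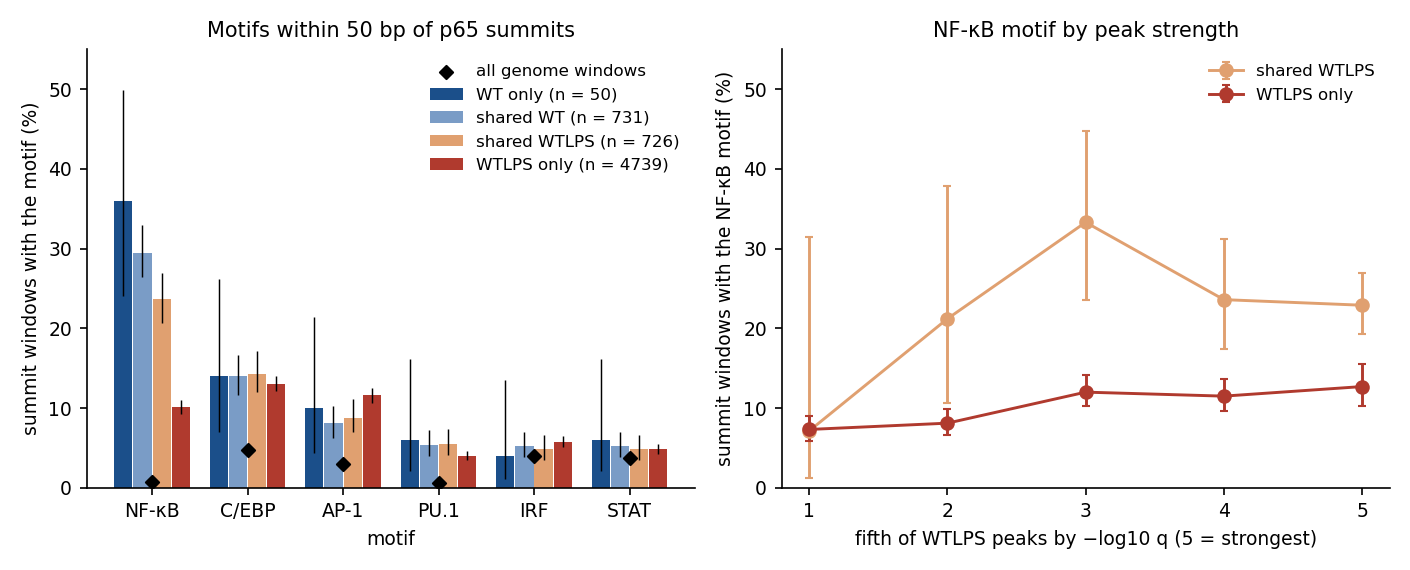
Left, share of p65 summits with each motif within 50 bp (y axis, %) by class, with 95% Wilson intervals as bars and the share of all genome windows as diamonds. Right, the κB share (y axis, %) by WTLPS peak strength (x axis, 1 weakest to 5 strongest), where shared peaks stand at 22.9% and WTLPS only peaks at 12.7% among the strongest.

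After LPS the p65 list was 7 times as long as before. Nearly all places bound before were bound after: 93.6% of WT peaks (91.7 to 95.1%) lay on a WTLPS peak, and 599 of the 731 shared WT peaks lay whole inside it. In the other direction 13.3% of WTLPS peaks (12.4 to 14.2%) touched a WT peak. Thinned to the background coverage of WT, which rests on the values worked out above, the WTLPS list would hold an expected 4762 peaks, 6.10 times the WT number. The weakest WT peak had a −log10 p of 6.05, and 408 WTLPS peaks lay below that value.

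Shared places were the strong ones. The median fold enrichment was 14.0 for shared WTLPS peaks and 7.01 for WTLPS only peaks, with ranges of 3.77 to 87.8 and 3.66 to 48.5. Of the tenth of WTLPS peaks that was strongest 58.1% were shared (318 of 547), and of the tenth that was weakest 0.916% (5 of 546). Median widths were 502 and 314 bp. WT only peaks had a median fold of 6.71, against 8.76 for shared WT peaks.

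**Figure D2:**
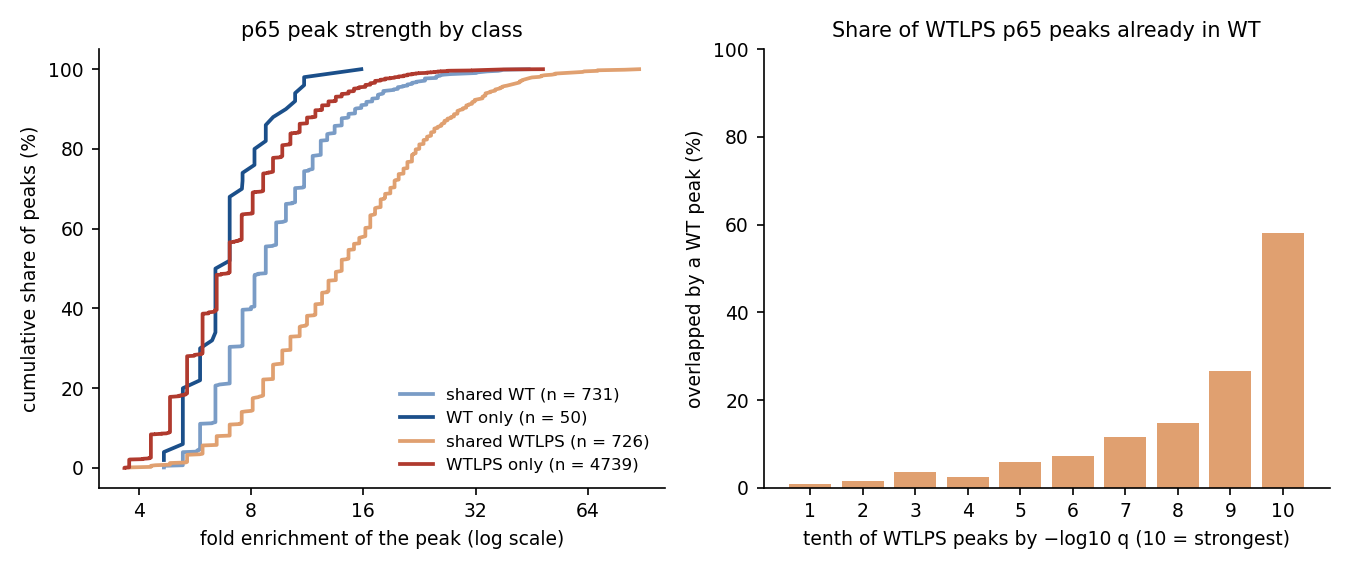
Left, cumulative share of p65 peaks (y axis, %) by fold enrichment (x axis, log scale) for the 4 classes. Right, share of WTLPS peaks overlapped by a WT peak (y axis, %) by strength (x axis, 1 weakest to 10 strongest), from 0.916% to 58.1%.

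With at least 50% of the WTLPS peak covered by a WT peak, 7.52% of WTLPS peaks were shared in place of 13.3%. The shared WT peaks with the smallest overlap were near Arl14, Aff1 and Vps41, with 51, 57 and 94 shared bases. The WT only peaks closest to a WTLPS peak were near Rchy1, Cyba and Rap2a, with gaps of 161, 467 and 616 bp. Of 4739 WTLPS only summits 1258 (26.5%) lay within 100 kb of a WT summit and 330 (6.96%) within 10 kb, beside 4.83% and 0.547% of all bases of the genome.

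Each of the 731 shared WT peaks was then set against its WTLPS partner. The fold was higher in WTLPS at 600 and lower at 131, with a median ratio of 1.53 and quartiles of 1.11 and 2.12. Fold enrichment is set against each library's own background, and the libraries differed in background coverage, so ratios are not amounts of bound p65. The highest ratio was 8.00, at −4227 bp from Fth1, the ferritin heavy chain that stores iron, from 5.25 in WT to 42.0 in WTLPS. It was followed by Rapgef6 with 6.42 and 39.9, Ch25h with 5.84 and 32.9, Lpar1 with 6.42 and 36.1, and Cd38, an NAD-consuming ectoenzyme, with 9.34 and 51.2. A peak downstream of Socs3, a suppressor of cytokine signalling, had 7.59 and 37.7. The WTLPS partners of 322 shared WT peaks (44.0%) were in the tenth of the WTLPS list that was strongest.

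The 3 lowest ratios were at promoters. A peak 2288 bp into Zmiz2 had a fold of 15.8 in WT and 5.34 in WTLPS. A peak at the start of Cd74, the invariant chain of MHC class II, had 20.4 and 9.16. At Nfkbia, which encodes IκBα and is a textbook target of p65, 2 shared peaks stood side by side. The one with its summit inside the gene had 18.1 in WT and 8.08 in WTLPS, and the one around the start had 11.7 and 15.6. The promoter of this inhibitor thus held p65 peaks before LPS.

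**Figure D3:**
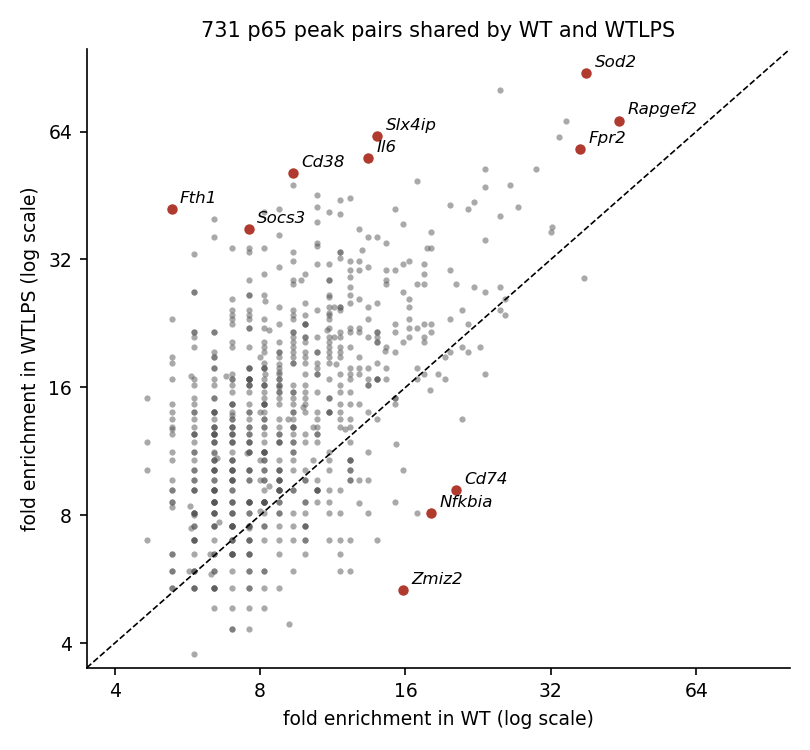
Fold enrichment in WT (x axis, log scale) and in WTLPS (y axis, log scale) of the 731 shared p65 peaks, with the dashed line marking equal values. Points above the line number 600, with Fth1 at 5.25 and 42.0, while Nfkbia, Cd74 and Zmiz2 lie below it.

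The strongest peak of the WTLPS list stood 2425 bp from the start of Sod2, the mitochondrial superoxide dismutase, with a fold of 87.8 and, in WT, 37.9. Peaks in 21 of the 26 lists of other antibodies lay there too, and 4 shared WTLPS and 6 WTLPS only peaks lay where at least 20 of those lists had a peak. The next shared peaks were near Ccdc88b (80.3, WT 25.1), Rapgef2 (67.9, WT 44.4, the strongest WT peak), Papss1 (67.9, WT 34.4), Slx4ip (62.5, WT 14.0), Zmynd15 (62.0, WT 33.3), Fpr2, a formyl peptide receptor (58.2, WT 36.8), and, at −64751 bp, Il6 (55.5, WT 13.4). Lmo4 and Borcs5 followed with 52.3 each. None of these 10 summits held the κB consensus within 50 bp.

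The strongest WTLPS only peaks were weaker. A pair of peaks in introns of Lpp, next to Bcl6, had folds of 48.5 and 48.0. One at the edge of the Atp6v1e2 promoter had 40.4, one in an intron of Slco3a1 37.7, one in Alpk2 37.2 and one nearest to Mrpl39 36.1. Peaks nearest to Twist2 (35.6), Trps1 (35.0), Adora2a, an adenosine receptor (34.7), and Ppp1cb (34.5) completed the 10. All 10 lay on a prior H3K4me1 peak, and all but the Twist2 peak on prior H3K27ac and SMC1 peaks. Those at Atp6v1e2, Slco3a1 and Twist2 held a κB match. The WT only list was led by Ankrd11 with a fold of 15.8, followed by Ccr6, a chemokine receptor, and Abtb2 with 11.1 each, and by H2-K1 and Tle3 with 10.5 each.

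Most p65 peaks lay away from promoters, and the intervals of WTLPS only and shared WTLPS peaks overlapped. The share of WT only peaks was higher, with a wide interval. A promoter, up to 2.5 kb from where any annotated gene starts, held 18.7% of WTLPS only peaks (17.6 to 19.8%), 20.1% of shared WTLPS peaks (17.4 to 23.2%) and 30.0% of WT only peaks (19.1 to 43.8%). Introns held 39.3% of WTLPS only peaks and sequence outside genes 37.2%. The median distance to the nearest protein-coding start was 28835 bp for WTLPS only and 23060 bp for shared WTLPS peaks. Over 100 kb from any such start lay 19.2% and 18.7%.

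The WTLPS only peaks had 2776 different nearest genes, of which 377 were also nearest to a shared peak. Of all 21938 protein-coding genes, 640 were nearest to a shared peak. Those 640 genes took in 1003 WTLPS only peaks (21.2%). Klf6, an immediate early zinc finger factor, and Tnfaip3 were each nearest to 15 WTLPS only peaks. Inhba, which encodes the activin A subunit, and Lpp had 14 each, and Id2, a factor of dendritic cell development, and Nfkbiz, the inducible nuclear IκBζ, had 13 each. Nfkbiz had no WT peak nearest to it.

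Genes with several peaks were rare before LPS and common after it. The WTLPS list was 7 times as long, which by itself gives more such genes, and no comparison at equal list length was made. At least 1 p65 peak within 100 kb of the start was found for 1894 of 21938 protein-coding genes in WT, a background of 8.63%, and for 7240 in WTLPS, a background of 33.0%. With 3 or more peaks there were 91 genes in WT (0.415%) and 1706 in WTLPS (7.78%). Of these 1706 genes, 868 had no WT peak within 100 kb, and 1422 (83.4%) had no WTLPS peak at their own promoter. A promoter peak was found for 627 genes in WTLPS (2.86%) and 104 in WT, 97 of them in both. Of genes with a WT peak in the window 64.1% also had a WTLPS only peak, and of genes without one 27%.

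Peaks of the longer WTLPS list also lay closer to each other. This too was not compared at equal list length. Joined over gaps of up to 12.5 kb, 90.1% of WT peaks stood alone and the largest group had 3. In WTLPS 59.9% stood alone, 273 groups held 3 or more peaks, and 33 held 5 or more. The largest had 9 peaks over 39.4 kb and contained Acod1, the itaconate-producing enzyme of activated myeloid cells. A group of 8 peaks over 45.5 kb upstream of Tnfaip3 held no shared peak, and a group of 6 around Cxcl1 and Cxcl2 held none either.

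Tnfaip3, which encodes A20, a deubiquitinase that ends NF-κB signalling, had the most peaks, 16 in WTLPS and 3 in WT. The 3 shared peaks had folds of 17.5 in WT and 28.0 in WTLPS at the start, 15.8 and 31.3 at 5874 bp inside the gene, and 12.3 and 13.5 at 50354 bp. The other 13 were WTLPS only, up to a fold of 17.2 at −62912 bp.

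The Cxcl cluster on chromosome 5 had 17 different WTLPS peaks around Cxcl3, Cxcl15, Ppbp, Pf4 and Cxcl5, all chemokine genes, and 1 shared peak with 10.5 in WT and 39.3 in WTLPS. Beside it, Cxcl1 and Cxcl2, neutrophil chemoattractants, had 9 each and no WT peak within 100 kb. The Ccl cluster on chromosome 11 had 17 around Ccl3, Ccl4, Ccl5, Ccl6, Ccl9, Heatr9 and Rpl9-ps1, a copy of a ribosomal protein gene. The peak 148 bp upstream of Ccl3 was shared, with 9.72 and 28.6. Tnfsf15, a TNF family ligand, had 14, and only the peak at its promoter was shared (5.84 and 5.93).

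Psma6 had 12 and lies next to Nfkbia, whose promoter peaks fall in its window. Tm9sf4 and Klf6 had 11 each, the pair Lrrc63 and Lcp1, an actin-bundling protein of leukocytes, shared 11, and Kctd12 had 10. In WT the most peaks were 4, at Il1b, the NK receptor ligand gene Clec2d, and Ncf4, a subunit of the phagocyte oxidase. Csf2rb, a GM-CSF receptor chain, and its neighbour Csf2rb2 had 4 as well. Incenp, Fth1, Best1 and Rab3il1, neighbours on chromosome 19, also had 4.

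**Figure D4:**
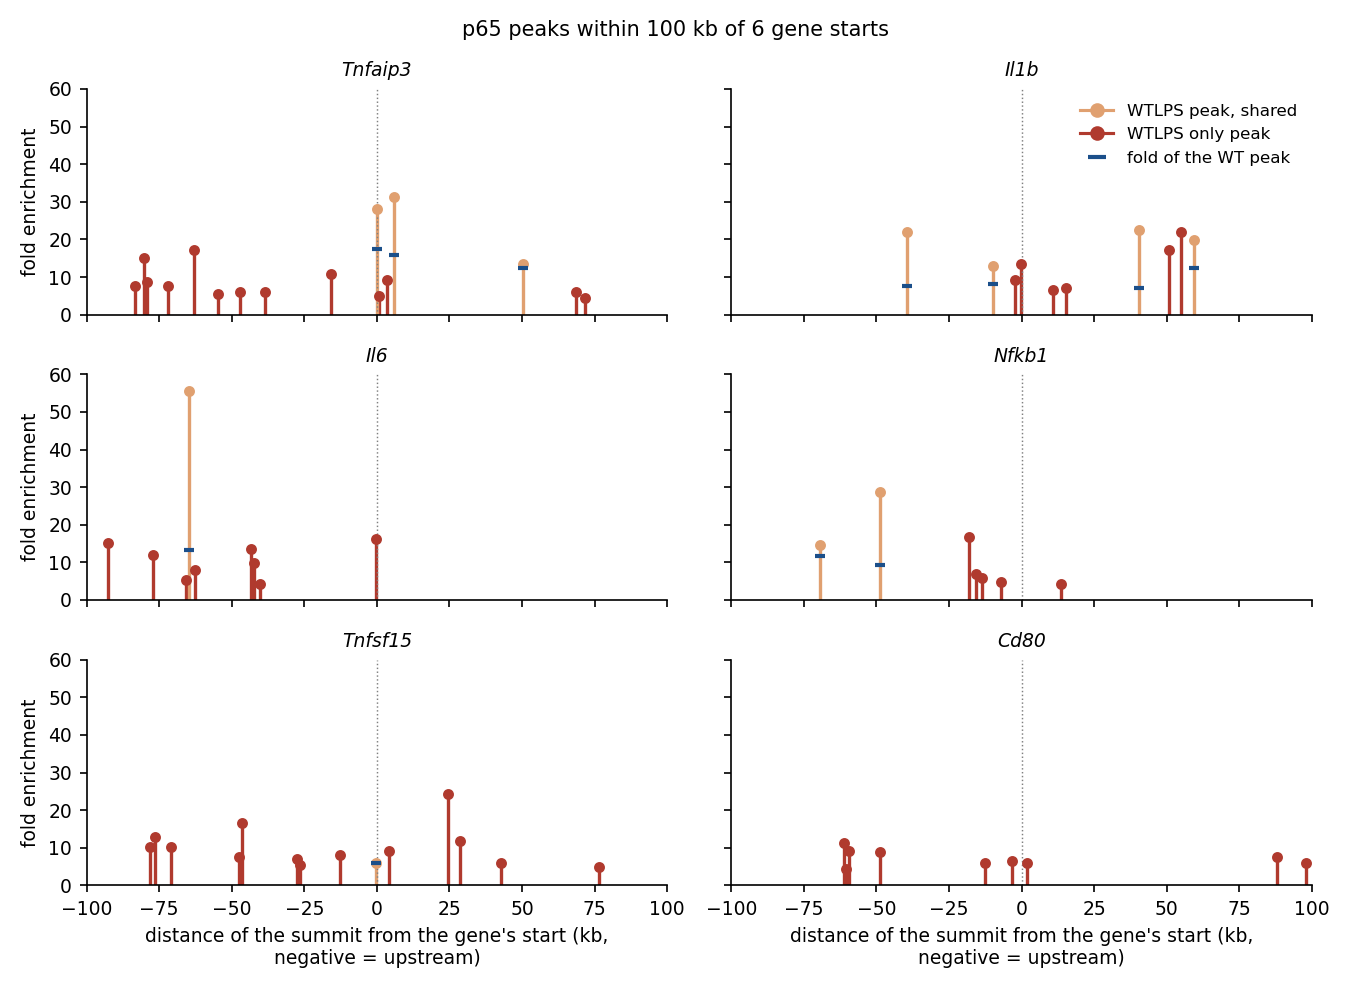
p65 peaks within 100 kb of 6 gene starts, by distance from the start (x axis, kb, negative upstream) and fold enrichment (y axis); stems are WTLPS peaks and blue dashes the WT fold of shared peaks. Tnfaip3 has 16 WTLPS peaks and 3 WT dashes, and Cd80 has 9 WTLPS peaks and none.

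Gene lists of NF-κB biology were read next, with peaks counted within 100 kb of the start. Over all protein-coding genes the median was 0 WTLPS peaks, 33.0% had at least 1 and 7.78% had 3 or more. At least 1 WT peak was found for 8.63%. A promoter peak was found for 2.86% in WTLPS and for 104 of 21938 in WT. Of 67 ribosomal protein genes 26 (38.8%) had at least 1 and 2 (2.99%) had 3 or more. Of 156 genes on the 10 lists 135 (86.5%) had at least 1 and 83 (53.2%) had 3 or more. The lists were chosen with earlier results of these data known, so the higher shares are a description and no independent test. Neighbouring genes share peaks, so genes of a cluster are not independent counts.

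Genes of the subunits were partly bound before LPS. Of 5 subunit genes 4 had a WTLPS and 3 a WT peak. Nfkb1 had 7 WTLPS and 2 WT peaks, with 9.34 in WT and 28.6 in WTLPS at −48625 bp and 11.7 and 14.6 at −69352 bp. These distances are from the start of the longest transcript, and starts of other Nfkb1 transcripts were not used. Whether either peak lies at such a start was not looked at, so a negative distance does not place it outside the gene. The first of these peaks lay in an intron. The second lay at an exon, on H3K4me3 and H3K27ac peaks of unstimulated cells. Of its WTLPS only peaks the strongest, in the Nfkb1 window printed above, had 16.7 and the other 4 had 4.31 to 7.01. Rel, which encodes c-Rel, had 5, and its promoter peak 7.01 and 13.5. Nfkb2, the p52 precursor, had 1, at the promoter, with 10.5 and 17.8. Rela, the gene of p65 itself, had 2 WTLPS only peaks, up to 7.55, and Relb had none.

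All 16 inhibitor and feedback genes had a WTLPS peak, 12 had a WT peak and 11 had 3 or more in WTLPS, with a median of 4. At the promoter 11 of 16 had a WTLPS peak and 6 a WT peak. After Tnfaip3 came Tnip1, an inhibitor that works with A20, with 10, Nfkbiz with 7 and Socs3 with 6. The Nfkbiz promoter peak, 5 bp from the start, was WTLPS only with a fold of 17.2. The promoters of Nfkbia, Nfkbib and Nfkbie, all IκB genes, carried p65 in both lists.

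Of 21 cytokine genes 20 had a WTLPS and 9 a WT peak, and 15 had 3 or more. Il1b had 10 WTLPS peaks, 4 of them shared. The shared ones had folds of 7.59 and 22.1, 8.17 and 12.9, 7.01 and 22.6, and 12.3 and 19.9 in WT and WTLPS, while the promoter peak was WTLPS only with 13.5. Il6 had 9, with the promoter peak WTLPS only at 16.2 and the shared peak at −64751 bp at 13.4 and 55.5. Il1a, next to Il1b, had 9, all of them also in the Il1b window, and Il12a, the p35 subunit of IL-12, had 7, none of them in WT. At Tnf, looked at after its values were known, the promoter peak was shared with 7.59 and 33.4. Il12b, the p40 subunit, also looked at afterwards, had 7 WTLPS only peaks with folds of 6.47 to 15.5. Ifnb1, the interferon β gene, had none.

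Of 15 chemokine genes 14 had a WTLPS and 8 a WT peak, and 12 had 3 or more, with a median of 9. Cxcl3 had 15 and Cxcl5 12. Ccl3 and Ccl4 had 12 and 11. The Cxcl2 promoter peak was WTLPS only with a fold of 30.2. Ccl22, a T cell attractant of dendritic cells, had 9 WTLPS only peaks with folds of 4.11 to 10.2. Ccl20 had none.

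Of 10 enzyme and effector genes 8 had a WTLPS and 3 a WT peak. Acod1 had 9, 3 of them shared, with 11.1 and 26.1 at the promoter. Ch25h, which makes 25-hydroxycholesterol, had 7, Marco 5 and Saa3, a serum amyloid A, 4. The promoter peaks of Marco and Saa3 were WTLPS only with 17.8 and 26.9.

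Of 17 costimulation, migration and antigen presentation genes 16 had a WTLPS and 10 a WT peak, and 14 had 3 or more. Tnfsf15 led, followed with 9 each by H2-Ab1, an MHC class II chain, Ciita, the class II transactivator, and Cd80. Cd80 had no WT peak, and its 9 folds ran from 4.31 to 11.3.

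Of 21 genes of LPS sensing and signalling 17 had a WTLPS and 5 a WT peak, and 4 had 3 or more, with a median of 1. Irak2, a kinase below TLR4, had 8. Cd14, the LPS co-receptor, had 4, among them a shared peak with 5.84 in WT and 26.9 in WTLPS at 17848 bp and a WTLPS only promoter peak at 9.16. Traf6 and Ticam2 had 3 each.

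The interferon-stimulated list had the lowest share of genes with at least 1 WTLPS peak among the 10, with 11 of 19, while 4 had a WT peak and 4 had 3 or more. Gbp2 and Gbp5, interferon-induced GTPases, had 5 each, Irf1 4 and Stat2 3. The 3 near Stat2 lay at the promoters of other genes, Il23a, Pan2 and Cs. Gbp2 and Gbp5 had peaks in common, among them those at the promoter of Gbp7. The Gbp2 promoter peak was shared, with 6.42 and 8.62, and the Gbp5 promoter peak was WTLPS only with 12.4. Of 17 AP-1 and immediate early genes 15 had a WTLPS and 9 a WT peak. Klf6 led with 11, 10 of them WTLPS only, and its shared peak, 9013 bp downstream of the start, had 9.34 in WT and 5.93 in WTLPS. Then came Fos with 6, and Fosl2 and Fosb with 5 each. A shared peak 32910 bp downstream of the Fosl2 start had 15.2 and 42.0. Of 15 myeloid and dendritic cell factors 14 had a WTLPS and 3 a WT peak, and none had a promoter peak in either list. Beside the 2.86% of all protein-coding genes with one in WTLPS, 15 genes are too few to set this list apart. Cebpb and Irf4 had 6 each, Irf8 4 and Bcl6 3. A peak 65182 bp from Cebpb had a fold of 22.8 in WT and 19.9 in WTLPS.

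The last question was what lay at these places before LPS. Of WTLPS only peaks 88.3% (87.3 to 89.2%) overlapped an H3K4me1 peak of unstimulated cells, where H3K4me1 peaks covered 9.50% of the genome. For SMC1 the share was 69.3% (68.0 to 70.6%), with 1.35% of the genome, and for H3K27ac 61.4% (60.1 to 62.8%), with 2.24%. H3K4me3 lay at 20.4% (19.3 to 21.6%), with 1.61%, and CTCF at 7.47% (6.76 to 8.25%), with 2.00%. A p65 peak has width, so these shares and the genome shares are not on the same scale.

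Shared WTLPS peaks had more of each: 94.5% H3K4me1, 92.0% SMC1 (89.8 to 93.8%), 85.1% H3K27ac (82.4 to 87.5%), 28.5% H3K4me3 and 9.64% CTCF (7.70 to 12%). The intervals of the classes were apart for all but CTCF. Counted at the summit base alone, a setting added after the data were seen, H3K4me3 lay at 19.3% of shared (16.6 to 22.3%) and 15.9% of WTLPS only peaks (14.9 to 17%), so the intervals overlapped, and CTCF at 4.96% and 4.87%. Shared peaks are also wider and stronger. Among WTLPS peaks of like strength the intervals for H3K4me1 overlapped in all 5 strength groups, with 97.0% of shared (95 to 98.2%) and 94.4% of WTLPS only peaks (92.4 to 96%) in the strongest. In the fifth that was strongest, SMC1 lay at 92.2% of shared (89.4 to 94.3%) and 72.5% of WTLPS only peaks (68.9 to 75.9%), and H3K27ac at 84.9% (81.3 to 87.9%) and 64.6% (60.8 to 68.2%). Of the 50 WT only peaks 39 lay on SMC1 and 35 on H3K27ac.

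Of the 3286 WTLPS only p65 peaks on SMC1, 2959 (90.0%) did not overlap a CTCF peak, beside 46.1% of all 63638 SMC1 peaks of unstimulated cells. The first share was counted at the p65 peak and the second at the SMC1 peak. Median widths were 314 bp for WTLPS only p65 peaks and 464 bp for SMC1 peaks, so the 2 shares are not on the same scale. Binding of STAT5, the factor activated by GM-CSF, was measured in cells restimulated with GM-CSF for 15 minutes and covered 0.126% of the genome. It lay at 24.9% of WTLPS only (23.7 to 26.1%) and 40.8% of shared WTLPS peaks (37.3 to 44.4%). At like strength the intervals overlapped in all but the fifth with the strongest peaks, where STAT5 lay at 46.9% of shared (42.4 to 51.4%) and 32.1% of WTLPS only peaks (28.5 to 35.8%). H3K27me3, a mark of repressed genes, lay at 2.34% and 1.24%, with 4.29% of the genome.

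**Figure D5:**
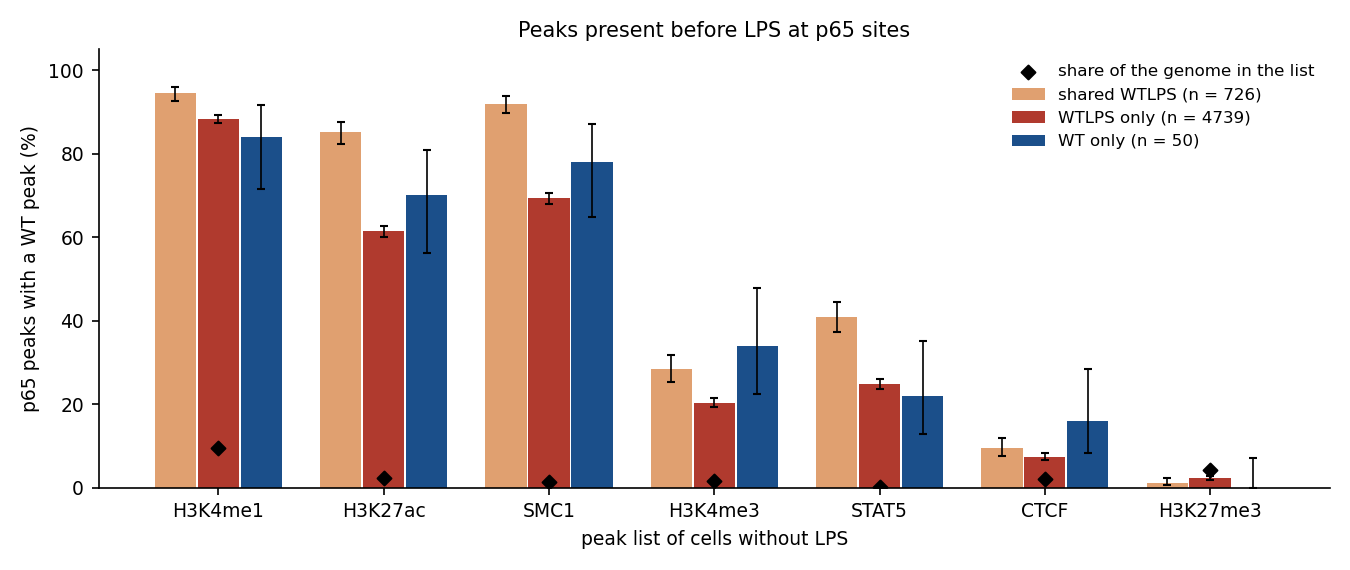
Share of p65 peaks that overlapped a peak of unstimulated cells (y axis, %) for 7 lists (x axis), with 95% Wilson intervals and the share of the genome in each list as diamonds. SMC1 stands at 92.0% of shared WTLPS and 69.3% of WTLPS only peaks.

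Promoter and distal WTLPS only peaks differed in these marks. H3K4me3 lay at 54.4% of 884 promoter peaks and 12.6% of 3855 distal ones. H3K27ac lay at 75.3% and 58.3%, and H3K4me1 at 76.9% and 90.9%. SMC1 was closer, at 75% and 68.0%.

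H3K4me1, H3K27ac and SMC1 were all there at 47.6% of WTLPS only (46.2 to 49.0%) and 76.7% of shared WTLPS peaks (73.5 to 79.7%). H3K4me1 without H3K27ac, the state often called a primed or poised enhancer, was found at 31.9% of WTLPS only (30.6 to 33.2%) and 14.3% of shared WTLPS peaks (12 to 17.1%). This state rests on the H3K4me1 list at its own low cutoff. None of the 5 marks lay at 275 WTLPS only peaks (5.80%, 5.17 to 6.51%) and at 2 shared ones (0.275%). With only mark peaks of −log10 q of 5 or more, the share of WTLPS only peaks was 22.7%. The 275 unmarked WTLPS only peaks had a median fold of 5.39, and 40 of them overlapped H3K27ac and 65 SMC1 after LPS. The strongest of them were in introns of Mmrn1 (31.3), Cd247, the T cell receptor ζ chain gene (20.7), and Epha4 (17.8).

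The marks at WTLPS only places also differed between the conditions. SMC1 peaks were there after LPS but not before at 846 places, and before but not after at 33. For H3K27ac the numbers were 794 and 234, and for H3K4me1 172 and 88. H3K4me3 went the other way with 88 and 219, and so did CTCF with 31 and 96. The SMC1 list as a whole was shorter after LPS (57354 peaks, 63638 before), as was that of H3K27ac (77050 and 83461). So were those of H3K4me1 (89884 and 94694), H3K4me3 (23314 and 24135) and CTCF (54020 and 60537). Over the whole lists 3251 H3K4me3 peaks were found only after LPS and 5253 only before. For CTCF these numbers were 5651 and 12494. For H3K4me3 and CTCF the order at WTLPS only places was thus that of the whole lists. Whether these places differed from the whole lists was not tested. Of the 1512 WTLPS only peaks on H3K4me1 without H3K27ac, 739 (48.9%, 46.4 to 51.4%) overlapped an H3K27ac peak after LPS. Peaks chosen for lacking the mark can only gain it, and of all 67972 H3K4me1 peaks without H3K27ac before LPS 9.35% overlapped H3K27ac after it, though those peaks are wider than p65 peaks. Of the 698 that lacked SMC1 as well, 335 (48.0%, 44.3 to 51.7%) had H3K27ac and 424 (60.7%, 57.1 to 64.3%) had SMC1 after LPS. Over all WTLPS only places 86.5% overlapped SMC1 and 73.3% H3K27ac after LPS, beside 97.7% and 89.0% of shared WTLPS places.

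Seen from the mark lists, WTLPS p65 peaks lay at 7.92% (7.41 to 8.45%) of the 10395 SMC1 peaks found only after LPS and at 0.191% (0.135 to 0.271%) of the 16223 found only before. WT p65 peaks lay at 0.423% and 0.0185% of the same SMC1 peaks. For H3K27ac the shares of WTLPS p65 were 1.82% of 32899 (1.68 to 1.97%) and 0.375% of 38144 (0.318 to 0.441%). For CTCF they were 0.265% of 5651 (0.161 to 0.438%) and 0.568% of 12494 (0.451 to 0.716%), the reverse order. The 10395 and 16223 SMC1 peaks had like median widths of 323 and 299 bp. SMC1 peaks found in both conditions, wider with a median of 547 bp, carried WTLPS p65 at 8.17% (7.92 to 8.42%) and WT p65 at 1.49%. For H3K27ac and CTCF peaks found in both conditions the shares of WTLPS p65 were 7.33% and 0.680%. Whether p65 or SMC1 came to these places first was not tested.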

How the data were processed

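ChIP-seq libraries were tagmented and sequenced from both ends. The authors aligned reads to mm10, removed duplicates and called peaks with MACS2 for paired fragments with a command that names no control library, though input libraries were sequenced. The submitters' processing notes name BWA 0.7.12, Picard 1.77, MACS2 2.1.2 and deepTools 3.1.3, and the methods name other versions. The deposited peak lists give, for each peak, its position, a fold enrichment over local background (a ratio), and −log10 p- and q-values. Reads were not used here. The study states in general that replicates were merged, and whether that holds for a deposited list was not given in the sources used here.

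Overlap was counted from 1 shared bp. Genes came from GENCODE M21, each with the start of its longest transcript, and a window of 100 kb was used. Motifs were searched in 101 bp around each summit in the mm10 sequence, and windows that touch an untranslated region were left out of those printed. The window of 1 further list is not reported here. Intervals are Wilson intervals at 95%. Coverage was worked out from fold and −log10 p, which fixed the fragment number of all 4625 WTLPS and 661 WT peaks with a −log10 p under 25. Functions were tested on simulated intervals. Python 3.11.15, pandas 2.3.3, scipy 1.17.1 and pyfaidx 0.9.0.4 were used.

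The named genes were up to 4 per list with the most WTLPS peaks, the 20 genes with the most, the 5 with the most in WT, and those nearest to the strongest peaks of each class. Nfkbia and the other IκB genes, Tnf, Il12b, Ccl22, Cxcl1, Cxcl2, the pairs with extreme ratios, the unmarked peaks, the nearest-gene counts and the comparisons by strength and from the mark lists were chosen after their values were seen. The members and lists were chosen with earlier results of these data known. Cxcl11 and Mx2, listed, were not found as protein-coding genes and were not used. The summit-base setting for shared WTLPS peaks was added after seeing the data. The p65 lists of CTCF-KO cells were not used.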

Additional observations from a re-analysis of the deposited data

How the results depend on the processing

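Of 69 alternatives over 19 results, 28 stayed inside the interval of the reported value (for the gene count, within 1.5 times) and 41 moved out of it. With p65 peaks of −log10 q of 5 or more, the WTLPS to WT ratio was 5.99, the share of WTLPS peaks overlapped by WT 15.4%, prior H3K4me1 at WTLPS only peaks 91.3%, prior H3K27ac 63.4%, none of the 5 marks 3.81% and the κB share of WTLPS only summits 11.5%. Thinned to WT coverage, the ratio was 6.10. With 50% of a peak covered, 7.52% of WTLPS peaks were shared and prior H3K27ac at WTLPS only peaks was 63.1%. With summits within 250 bp, 90.4% of WT peaks were shared. Promoters of 1 kb held 10.4% of WTLPS only peaks, and promoters at all transcript starts 24.8%. With the p65 summit base in the mark peak, the shares were 85.3% for H3K4me1, 15.9% for H3K4me3, 46.9% for H3K27ac, 67.1% for SMC1, 4.87% for CTCF and 7.05% for none. For shared WTLPS peaks, a setting added after seeing the data, they were 90.5%, 19.3%, 64.6%, 91.6% and 4.96% for those 5 marks, so the intervals of the classes overlapped for H3K4me3 and CTCF. With a mark peak within 1 kb they were 94.1%, 26.4%, 75.1%, 74.0%, 15.7% and 4.24%. With mark peaks of −log10 q of 5 or more, they were 2.83% for H3K4me1, 17.7% for H3K4me3, 54.9% for H3K27ac, 67.9% for SMC1 and 22.7% for none. All 60537 CTCF peaks already had that value, so CTCF could not move from 7.47%, and this alternative counts among the 28. Of the SMC1 peaks 92.8% had it. Only 732 of the 94694 H3K4me1 peaks reach that value. Genes with 3 or more WTLPS peaks numbered 718 within 50 kb and 4101 within 200 kb. Within 100 bp of the summit the κB share was 36.4% of shared WTLPS, 54.0% of WT only and 16.5% of WTLPS only, and with GGANTTTCC 11.8%, 12% and 5.63%. With that motif the order of WT only and shared WTLPS was within counting error. No paired analysis was possible because the results come from no test and each condition has 1 list.

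With 1 list per condition, no difference can be set against the spread between replicates. Peak calls depend on depth, and which library was deeper was not settled here. Fold enrichment is relative to each library's background and is no measure of the amount of p65. Peaks are assigned to genes by distance, which does not show that a gene is regulated.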
